A study of Mus musculus with 28 samples.

Results

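Sox2, Sox9, S100b, Lhx3, Pitx1 and Hesx1 are 6 genes of pituitary stem cells and of folliculostellate cells, and they were taken by name from the 32594 genes of a count table of whole mouse pituitaries. All 28 mice, 16 females and 12 males, were C57BL/6J animals, 8 weeks old when they arrived, none with a genetic change named in the labels. Paradoxical sleep deprivation (PSD) kept mice for 12 h on small columns above water, so that the slack muscles of REM sleep end it by contact with the water, and restraint was 20 min in a tube. Pituitaries were taken about 18 h after PSD, and 10 min after restraint where it was given. The groups were home cage controls (4 females, 4 males), restraint without PSD (4 females, 2 males), PSD without restraint (4 females, 3 males) and PSD + restraint (4 females, 3 males). Every mouse, controls included, had been adapted to the tanks beforehand, for 1 h on each of 3 days. Each library holds a whole gland, so that fewer cells of a type and less RNA per cell cannot be told apart.

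Pituitary stem cells line the cleft between the anterior and intermediate lobes and lie scattered through the anterior lobe, and they are known by the HMG-box factors SOX2 and SOX9. Folliculostellate cells are star-shaped, non-hormonal cells of the anterior lobe that form a gap-junction network and are known by the calcium-binding protein S100B, and the 2 populations overlap. S100B is also made in abundance by astrocytes and by the pituicytes of the posterior lobe. LHX3 (LIM homeodomain), PITX1 (paired-like homeodomain) and HESX1 (a homeodomain repressor) build the pituitary in the embryo. LHX3 and PITX1 stay on in hormone cells of the adult gland, so these genes are not specific to stem cells, whereas HESX1 is switched off in the embryo as hormone cells mature.

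The genes lie on 6 chromosomes of the mouse genome (mm10). Sox2 is at chr3:34650405-34652461 on the plus strand, inside the longer non-coding gene Sox2ot of the same strand, with which it shares no exon. Sox9 is at chr11:112782224-112787760 (plus). S100b is at chr10:76253853-76261159 (plus), and one of its exons overlaps an exon of Dip2a on the other strand. The libraries were stranded, but the strand setting of the counting is not given in the sources used here, so reads in that overlap cannot be assigned with certainty. Lhx3 is at chr2:26200212-26208289 (minus), Pitx1 at chr13:55825051-55836192 (minus) and Hesx1 at chr14:26994416-27002329 (plus).

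RefSeq promoter windows (GRCm38.p6) were on hand for 4 of the 6 genes, not for Sox9 and Pitx1. The 3 windows that follow, each the 250 bases before a RefSeq start, are shown for the genes on which the results turn, namely Hesx1 (the sex difference), Sox2 (the difference between the sexes after PSD) and S100b (the spread between mice). Capitals mark every match, on either strand, of 6 short motifs: ACAAT and ACAAAG (SOX factors, the latter also TCF/LEF), TAATTA (LIM homeodomain), TAATCC (PITX), TATAAA (the TATA box) and CCAAT.
Hesx1, chr14:27000112-27000361, plus strand: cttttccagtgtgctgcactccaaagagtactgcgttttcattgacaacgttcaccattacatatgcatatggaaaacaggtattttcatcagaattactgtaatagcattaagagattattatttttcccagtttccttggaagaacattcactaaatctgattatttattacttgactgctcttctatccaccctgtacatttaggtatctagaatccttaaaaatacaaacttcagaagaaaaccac
Sox2, chr3:34649745-34649994, plus strand: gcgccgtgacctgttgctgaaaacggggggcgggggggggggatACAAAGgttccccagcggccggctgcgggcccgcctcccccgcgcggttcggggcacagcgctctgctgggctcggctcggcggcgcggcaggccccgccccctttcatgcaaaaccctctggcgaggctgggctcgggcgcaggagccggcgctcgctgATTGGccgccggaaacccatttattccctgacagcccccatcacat
S100b, chr10:76253586-76253835, plus strand: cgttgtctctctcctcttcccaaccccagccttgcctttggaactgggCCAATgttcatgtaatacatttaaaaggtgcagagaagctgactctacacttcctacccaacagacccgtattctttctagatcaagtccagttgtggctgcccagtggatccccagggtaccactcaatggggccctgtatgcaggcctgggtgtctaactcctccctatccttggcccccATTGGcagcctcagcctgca
The Hesx1 window, in an intron of a longer Hesx1 transcript of GENCODE, held none of the 6 motifs and had a GC content of 34.0%. The Sox2 window, in an intron of Sox2ot, had a GC content of 72.0%, with 1 ACAAAG match and 1 CCAAT match (read as ATTGG). The S100b window lay in no annotated transcript, had a GC content of 53.6% and held 2 CCAAT matches. No base fell into 2 matches. Of 32851 RefSeq promoters cut to the same length, 16.5% held ACAAAG, 33.8% CCAAT, 27.7% ACAAT, 4.8% TAATTA, 6.3% TAATCC and 12.4% TATAAA, and the median GC content was 52.4%. A match is a run of letters and not a measured binding site.

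The libraries held 14024465 to 52948531 counts each (median 33389717). The hormone genes of the anterior and intermediate lobes, which define the labelled tissue, were abundant, with group means of 33970 to 192500 CPM for Prl, 78280 to 190600 for Gh and 45740 to 106900 for Pomc (CPM, counts scaled to a common library size with TMM factors). Some libraries stood apart. Control male 1 had hardly any posterior lobe transcript (6 markers, Nkx2-1, Rax, Lhx2, Col25a1, Avp and Oxt, at 4.08 CPM in sum) against 45.4 to 99.2 CPM in the other 27 mice, and the least intermediate lobe transcript (Pax7 and Pcsk2, 232.8 CPM). PSD female 1 had the most forebrain transcript (8 markers such as Tbr1 and Emx1) at 75.5 CPM, against a median of 14.8 CPM in control females. PSD + restraint female 4 came next with 53.9 CPM, and the mouse after it had 29.2 CPM. Values without these mice are given where results rest on them. The fit without control male 1 and PSD female 1 together kept PSD + restraint female 4.

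The abundance of the 6 genes, compared as TPM, which also divides by transcript length, spanned a wide range. Lhx3 (median 112 TPM over 28 mice) and Pitx1 (86.8 TPM), both also expressed by hormone cells, were the most abundant. Sox2 had a median of 19.3 TPM, Sox9 of 3.18 TPM, S100b of 2.40 TPM and Hesx1 of 0.190 TPM. Lhx3 exceeded Pitx1 in 27 of 28 mice, although the ranges of the 2 genes overlapped (96.6 to 153 and 62.4 to 123 TPM). Pitx1 exceeded Sox2, and Sox2 exceeded Sox9, in 28 of 28 mice with no overlap. Sox9 and S100b were not separated, since Sox9 was the higher in 17 of 28 mice. S100b exceeded Hesx1 in all 28.

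The genes also differed in how much they varied. Lhx3 was the steadiest, with a standard deviation within groups of 0.14 on the log2 CPM scale (percentile 38.5 of all genes tested), followed by Sox2 (0.21), Pitx1 (0.22) and Sox9 (0.26). Hesx1, at 6 to 23 counts in males and 0 to 8 in females, had 0.46. S100b had 1.08, at percentile 99.1 of all genes, although it was counted 27 to 680 times per mouse. The plot of levels by mouse shows these spreads side by side.

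**Figure D1:**
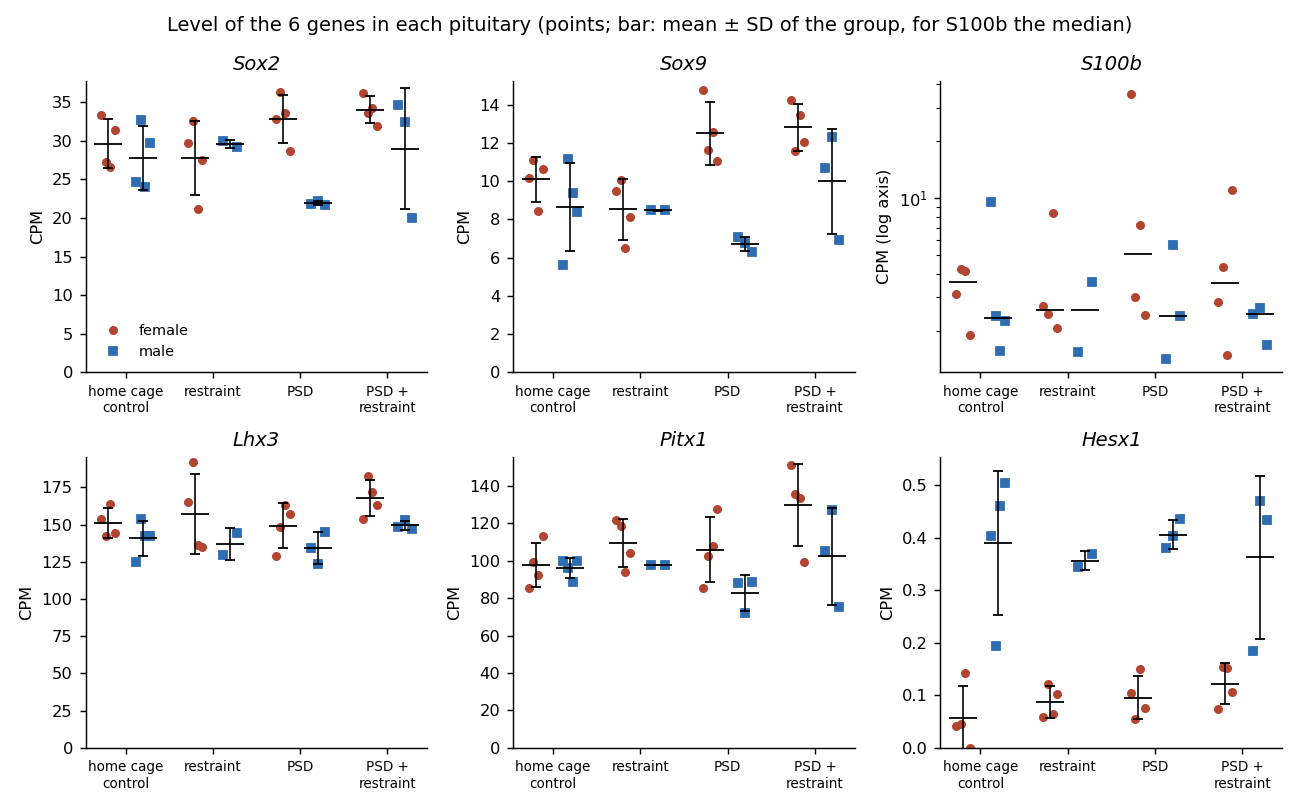
Level (CPM) of each gene in every pituitary, by treatment, with females as red circles and males as blue squares. Black bars give the group mean ± SD, and for S100b, drawn on a log axis, the median. All males lie above all females of the same treatment for Hesx1, whereas single mice stand far above their groups for S100b.

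Hesx1 gave the clearest difference, and it was between the sexes. Males had 0.382 ± 0.101 CPM (SD, n = 12) and females 0.0905 ± 0.0460 CPM (SD, n = 16), from 164 counts in all males together and 47 in all females. In home cage controls the 4 males had 0.403, 0.195, 0.462 and 0.504 CPM and the 4 females 0.0412, 0.0452, 0.142 and 0 CPM. The female at 0 had 38346654 counts in total, which allows a level of up to 0.0855 CPM (3 counts in this library on the same TMM scale, counting error only). The males were above the females without overlap in this treatment and in the other three, where over all genes tested the sexes failed to overlap in 23% of comparisons within a treatment. After restraint the males had 0.344 and 0.369 CPM, and the females 0.0589 to 0.122 CPM. After PSD the males had 0.380, 0.403 and 0.436 CPM, and the females 0.0546 to 0.149 CPM. After PSD + restraint the males had 0.185, 0.471 and 0.434 CPM, and the females 0.0745 to 0.155 CPM, so that the lowest male came close to the highest female.

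Over all mice, with treatment in the model, Hesx1 was lower in females by a log2 fold change of -2.04 ± 0.25 (SE, adjusted p = 3.01e-07 by Benjamini and Hochberg over 18936 genes, edgeR quasi-likelihood test, which also gave the other adjusted p-values unless DESeq2 is named). A gene was called when its adjusted p did not exceed 0.05 and the groups differed at least 1.25-fold. By that rule Hesx1 and Sox9 were called among the 6 genes, where the background was 14.9% of all genes tested, so a share of 2 in 6 is to be read against a large number of sex-different genes in this tissue. Between home cage controls Hesx1 alone was called (-2.70 ± 0.48, adjusted p = 0.000344, background 10.7%). DESeq2 called the same gene there, with a shrunken log2 fold change of -0.85. Hesx1 was called over all mice in every one of the 37 alternatives that tested it, with log2 fold changes of -2.17 to -1.31. It was not tested under filters of at least 10 counts in every mouse or a mean of at least 1 TPM. Of the alternatives 28 left out 1 mouse each, so they share most mice and are not independent support. Hesx1 was too low to be tested among females alone. It thus passed the filter of the main fits through the males, the sex in which it was higher.

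Within the single treatments, comparisons that were added after the data had been seen, Hesx1 was lower in females after restraint (-1.99 ± 0.51, adjusted p = 0.0146, 1 of 6 genes called, background 8.02%) and after PSD (-2.08 ± 0.50, adjusted p = 0.00789, 3 of 6 called, background 8.96%). After PSD + restraint the difference was -1.38 ± 0.49 with an adjusted p of 0.105, and none of the 6 genes was called by edgeR or by DESeq2 (background 4.1%). There 2 of 6 had an unadjusted p under 0.05, beside 3673 of 18936 genes tested. The call after restraint rests on 2 males and was lost without either of them (adjusted p = 0.0900 and 0.115). Whether the sex difference changed with a treatment was tested directly, and no change was called for Hesx1. The largest of the 3, for PSD + restraint, was 1.32 ± 0.70 (unadjusted p = 0.0723, adjusted p = 0.717).

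The plot of the sexes by treatment shows Hesx1 on the male side in all 4 treatments, with Sox2 and Sox9 apart from 0 chiefly after PSD.

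**Figure D2:**
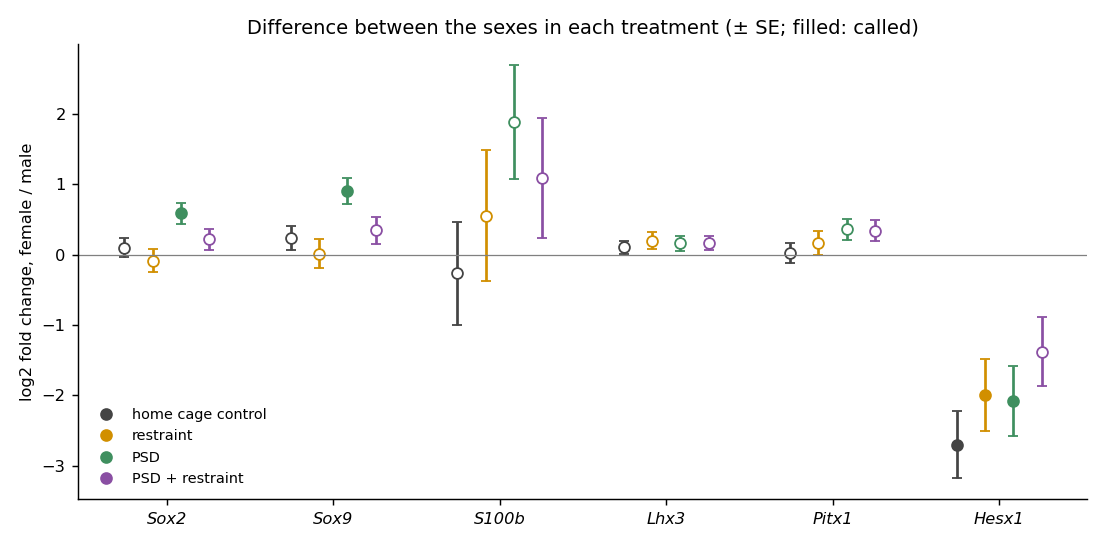
Log2 fold change of females over males (± SE, edgeR) for each gene in the 4 treatments, with filled circles for called differences. Hesx1 lies between -2.70 and -1.38, and the only other called differences are Sox2 (0.58) and Sox9 (0.90) after PSD.

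Other developmental factors also differed between the sexes over all mice. Of 23 tested pituitary transcription factors of a list of 24, 7 were higher and 4 lower in females, where 14.9% of all genes tested were called. Their median log2 fold change was 0.12, beside 0.00794 over all genes tested. Among those called were Six6 (0.47, adjusted p = 2.88e-09), Neurod4 (1.21, adjusted p = 7.49e-06) and Gata2 (-0.88, adjusted p = 9.24e-06), the last a factor of gonadotropes and thyrotropes. Pitx1 (0.21 ± 0.08, adjusted p = 0.0305) and Lhx3 (0.15 ± 0.05, adjusted p = 0.0161) passed the adjusted p but not the fold change. Lhx4, the paralogue of Lhx3, resembled Hesx1, at 0.768 ± 0.156 CPM in control males and 0.108 ± 0.0999 CPM in control females (n = 4 each), with a log2 fold change over all mice of -2.23 (adjusted p = 9.69e-06). Lhx4 was picked out after its values were seen.

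Of 30 further stem and folliculostellate genes, 4 were higher and 1 lower in females (median 0.00647), a share close to the 14.9% of all genes. Of 14 Notch genes Hey1 was lower (-0.35, adjusted p = 3.70e-05), of 16 WNT/Hippo genes none was called, and of 12 tested S100 genes S100a9 (-2.64, adjusted p = 1.82e-05) and S100a8 (-2.48, adjusted p = 9.83e-05), both neutrophil genes, were lower. The stem and folliculostellate genes with the smallest p were Cpxm2 (0.52, adjusted p = 1.12e-08), Nes, the progenitor filament nestin (0.49, adjusted p = 2.83e-08), Cdh26 (0.52, adjusted p = 0.000225) and Anxa1, the folliculostellate mediator annexin A1 (-0.47, adjusted p = 0.000840). Control females had 47.5 ± 2.09 CPM of Nes and control males 35.2 ± 1.90 CPM (n = 4 each). All 7 proliferation genes were lower in females, led by Mki67 (-0.85, adjusted p = 0.000975), with a median of -0.63. Of 15 tested SOX genes other than Sox2 and Sox9, 3 were higher and 2 lower. Sox11 (-0.64, adjusted p = 8.19e-08), Sox4 (0.45, adjusted p = 0.000553), Sox13 (-0.43, adjusted p = 0.00108) and Sox3 (0.89, adjusted p = 0.00130) had the smallest p. Among 8 hormone and receptor genes that LHX3 and PITX1 are known to drive, Prl was higher in females (2.04, adjusted p = 1.25e-14) and 5 were lower, among them Lhb (-0.72, adjusted p = 1.63e-08), Cga (-0.69, adjusted p = 8.24e-08) and Gh (-1.05, adjusted p = 1.19e-07).

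Sox9 was the other gene called between the sexes over all mice. The 16 females had a median of 11.1 CPM (6.49 to 14.8) and the 12 males of 8.43 CPM (5.63 to 12.3), so the ranges overlapped. The log2 fold change was 0.38 ± 0.11 (adjusted p = 0.00748). It lay under the fold change threshold with a score of neurointermediate lobe markers as a covariate (0.27, adjusted p = 0.0287) and without control male 1 and PSD female 1 (0.30, adjusted p = 0.0195). In home cage controls Sox9 had 10.2, 11.1, 8.46 and 10.7 CPM in females and 5.63, 11.2, 9.37 and 8.38 CPM in males, which overlapped (0.23, adjusted p = 0.414). The lowest of these males, mouse 1, was the one with little posterior lobe transcript.

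PSD without restraint gave Sox2 and Sox9 estimates of opposite sign in females and males, without a call in either sex. Sox2 had 32.8, 36.3, 33.6 and 28.7 CPM in PSD females, against 33.3, 27.3, 26.6 and 31.4 CPM in control females. In PSD males Sox2 had 21.8, 22.3 and 21.7 CPM, all below the controls at 24.7, 32.7, 24.1 and 29.8 CPM. Female groups thus overlapped, whereas the males did not, as in 12.3% of treatment comparisons within a sex over all genes tested. That share is pooled over both sexes and over groups of 2 to 4 mice, and smaller groups fail to overlap more often by chance. Sox9 had 14.8, 11.6, 12.6 and 11.1 CPM in PSD females, against control females at 8.46 to 11.1 CPM, of which the highest was just above the lowest PSD female. In PSD males Sox9 had 7.06, 6.75 and 6.31 CPM, inside the range of the male controls (5.63 to 11.2 CPM).

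The log2 fold changes were 0.15 ± 0.11 (adjusted p = 0.472) for Sox2 and 0.31 ± 0.13 (adjusted p = 0.214) for Sox9 in females. There 0 of 5 tested genes were called by edgeR or DESeq2 (background 0.0277%). An unadjusted p under 0.05 was found for 2 of 5, beside 3567 of 18059 genes tested. Hesx1 was too low to be tested in females. In males the log2 fold changes were -0.34 ± 0.15 (adjusted p = 0.561) for Sox2 and -0.35 ± 0.21 (adjusted p = 0.676) for Sox9. There 0 of 6 were called by either tool (background 0.00547%), with 1 at an unadjusted p under 0.05, beside 1617 of 18271 genes tested. Tested directly, the estimated difference of the PSD response between the sexes was 0.49 ± 0.20 for Sox2 (unadjusted p = 0.0205, adjusted p = 0.403) and 0.67 ± 0.25 for Sox9 (unadjusted p = 0.0142, adjusted p = 0.377). Both estimates were positive in every alternative run (0.40 to 0.58 and 0.52 to 0.83), and in none did the adjusted p pass. All 6 genes had a positive estimate in this test. None was called by edgeR (2 of 6 at an unadjusted p under 0.05) or by DESeq2, and the background was 0%, with 2038 of 18936 genes at an unadjusted p under 0.05 and 25 called by DESeq2.

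The levels after PSD themselves differed between the sexes. Sox2 was higher in PSD females than in PSD males by 0.58 ± 0.15 (adjusted p = 0.0108) and Sox9 by 0.90 ± 0.19 (adjusted p = 0.00328). With Hesx1 they make the 3 called genes named above. The mice did not overlap in either gene, as in 23% of comparisons of the sexes within a treatment over all genes tested. Both calls held in each of the 40 alternatives run, with log2 fold changes of 0.49 to 0.68 for Sox2 and 0.73 to 0.99 for Sox9. A call in this treatment and not in controls does not show that the difference changed, and the direct test of that change is the one given before. Without PSD female 1 they were 0.58 (adjusted p = 0.0246) and 0.81 (adjusted p = 0.0137). Related genes were called in the same comparison, in which 8.96% of all genes tested were called, 1031 higher and 665 lower in females. Of 15 other SOX genes 5 were higher and 1 lower in PSD females, with Sox4 (0.88, adjusted p = 0.000491), Sox11 (-0.58, adjusted p = 0.00557), Sox12 (0.59, adjusted p = 0.00860) and Sox18 (0.66, adjusted p = 0.0278) at the smallest p. Of the 30 stem and folliculostellate genes 6 were higher, led by Nes (0.67, adjusted p = 1.54e-05), Prrx2 (0.86, adjusted p = 0.00357), Cpxm2 (0.49, adjusted p = 0.00417) and Cdh1, the epithelial cadherin (0.66, adjusted p = 0.00987). Glial markers were higher too, namely 3 of 5 astrocyte markers (Aqp4, Slc1a3 and Gfap, the last also on the stem list) and 2 of 6 oligodendrocyte markers, with astrocyte sums of 68.6 to 344.9 CPM in PSD females and 66.0 to 95.1 CPM in PSD males. Without PSD female 1 and control male 1, 3 SOX genes were higher and 1 lower, 4 stem and folliculostellate genes were higher, and 1 astrocyte marker was higher and 1 lower. The part of glial cells in these differences was not tested.

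No intermediate or posterior lobe marker was called for PSD in either sex, but intermediate lobe sums stood higher in the PSD groups. The 2 markers summed to 1101 to 2770 CPM in PSD females against 703 to 1062 CPM in control females, and to 1090 to 1586 CPM in PSD males against 232.8 to 1068 CPM in control males. The posterior lobe markers lay between 64.2 and 93.4 CPM in PSD females and between 45.4 and 67.0 CPM in control females, whereas PSD males, at 49.3 to 52.9 CPM, lay inside the range of control males (4.08 to 66.0 CPM). With the neurointermediate score in the model, the female PSD estimate was -0.05 for Sox2 and 0.19 for Sox9, and the male one -0.41 and -0.50. The difference between the responses of the sexes was 0.51 and 0.68 with the score, beside 0.49 and 0.67 without it. The score was -4.08 in control male 1 and -0.6 to 1.11 in the other mice, so fits with males lean on 1 mouse. It also holds Pcsk2, itself called after PSD + restraint over all mice. The fit therefore cannot tell lobe content from a response, and the part of either was not tested.

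**Figure D3:**
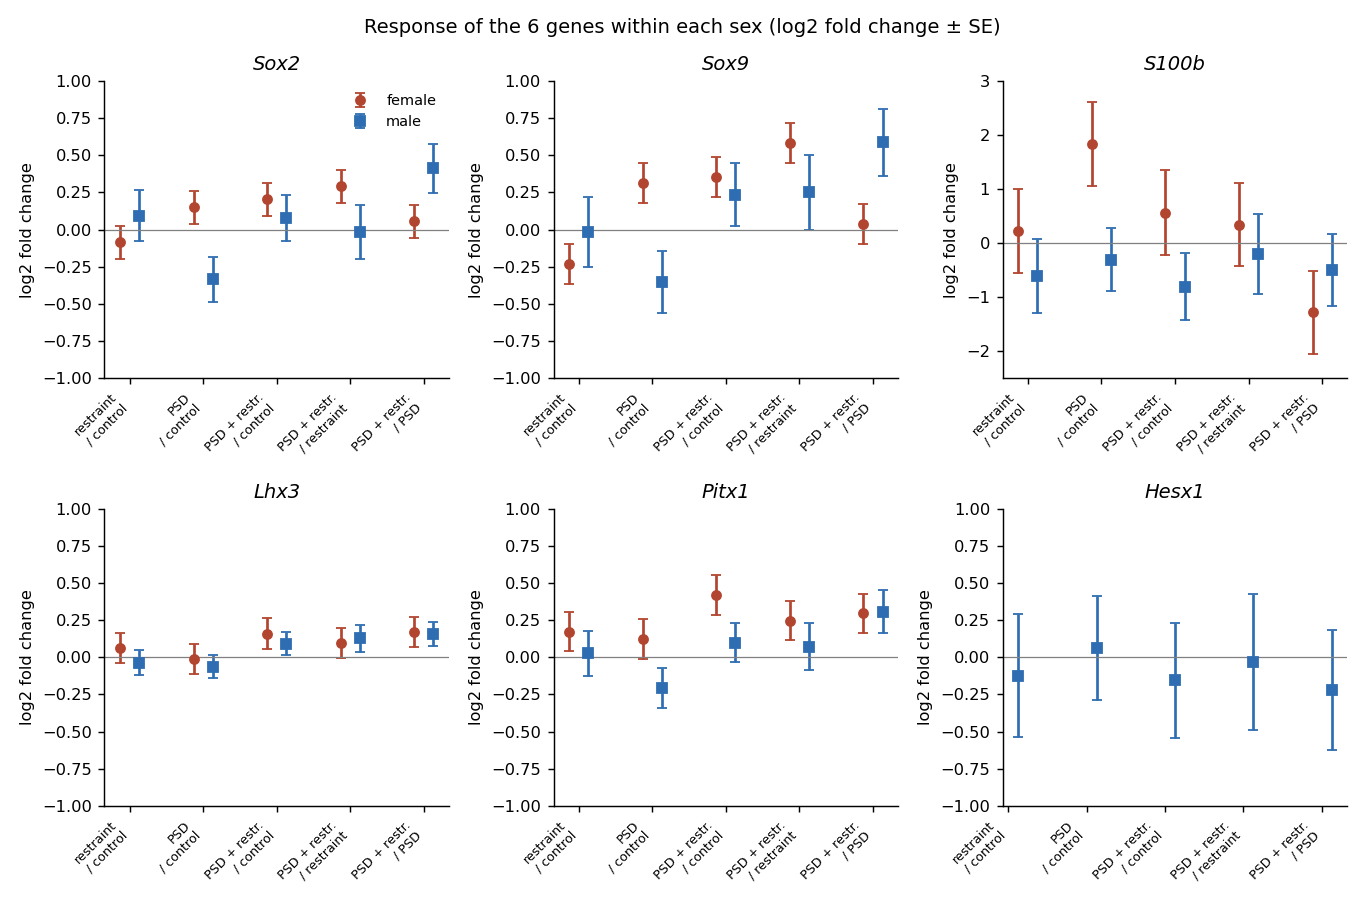
Log2 fold change (± SE, edgeR, fitted within each sex) of each gene in 5 treatment comparisons, with females as red circles and males as blue squares, on a wider axis for S100b. None of the differences was called, and Sox2 and Sox9 lie on opposite sides of 0 for PSD over control in the 2 sexes. Hesx1 was tested in males alone.

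PSD among restrained mice gave the smallest unadjusted p of any treatment comparison for a member within 1 sex, for Sox9 in females. Sox9 had 14.2, 11.6, 13.5 and 12.1 CPM after PSD + restraint and 9.48, 10.1, 6.49 and 8.11 CPM after restraint alone. All 4 mice with PSD were above all 4 without it, and above the 4 controls. Over all genes tested, groups failed to overlap in 12.3% of treatment comparisons within a sex. The log2 fold change of Sox9 was 0.58 ± 0.13 (unadjusted p = 0.000543, rank 64 of 18059 genes, adjusted p = 0.148). By edgeR 0 of 5 genes were called in this comparison (background 0.0332%), with 2 at an unadjusted p under 0.05, beside 2555 of 18059 genes tested. DESeq2 called Sox9 (0.47, adjusted p = 0.0111). The adjusted p of Sox9 ranged from 0.0111 to 0.959 over the alternatives, the highest with the neurointermediate score (0.46). Posterior lobe markers also stood higher, at 78.0 to 99.2 CPM after PSD + restraint and 49.5 to 87.4 CPM after restraint. In males the same comparison gave 0.25 ± 0.25 for Sox9 (adjusted p = 0.762), with 0 of 6 genes called by either tool, none at an unadjusted p under 0.05 and a background of 0.00547%.

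In all mice together, in a comparison added after the data had been seen, Sox9 had 0.47 ± 0.16 for PSD among restrained mice (unadjusted p = 0.00575, adjusted p = 0.215). All 6 estimates were positive and 0 of 6 were called by edgeR or DESeq2, where 0.0951% of genes were called. An unadjusted p under 0.05 was found for 1 of 6, beside 2560 of 18936 genes tested. Whether PSD acts otherwise with restraint than without it was tested by the interaction. It was 0.44 ± 0.21 for Sox9 (unadjusted p = 0.0508, adjusted p = 0.9999) and 0.24 ± 0.16 for Sox2 (unadjusted p = 0.146). No member was called and none had an unadjusted p under 0.05. Neither edgeR nor DESeq2 called any gene (background 0%), and 743 of 18936 genes had an unadjusted p under 0.05.

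Restraint alone gave no call for the 6 genes. In females the estimates ran from -0.23 ± 0.13 for Sox9 to 0.22 ± 0.77 for S100b, with 0 of 5 genes called by edgeR or DESeq2 and none at an unadjusted p under 0.05 (background 0.543%). In males they ran from -0.61 ± 0.69 for S100b to 0.09 ± 0.17 for Sox2, with 0 of 6 called by either tool and none at an unadjusted p under 0.05 (background 0.296%, from 2 restrained mice). Over all mice none of the 6 was called by either tool or had an unadjusted p under 0.05 (background 1.14%), nor were they for PSD over all mice (background 0.671%). No difference of the restraint response between the sexes was called for the 6 genes, with none at an unadjusted p under 0.05 and none called by DESeq2 (background 0%, 804 of 18936 genes at an unadjusted p under 0.05, and 0 called by DESeq2).

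PSD + restraint against home cage controls gave Pitx1 its largest difference, in females. Pitx1 had 151, 136, 134 and 99.4 CPM after PSD + restraint and 85.4, 99.6, 92.6 and 113 CPM in controls. The first 3 mice were above all controls, and mouse 4, the mouse with the second most forebrain transcript, was inside their range. The log2 fold change was 0.42 ± 0.13 (adjusted p = 0.0944), and 0 of 5 genes were called by edgeR (background 2.2%). An unadjusted p under 0.05 was found for 2 of 5, beside 3649 of 18059 genes tested. DESeq2 called Pitx1 (0.34, adjusted p = 0.0447), as did edgeR without mouse 4 (0.52, adjusted p = 0.0494) or with a forebrain score as covariate (0.54, adjusted p = 0.0203). With the neurointermediate score it was 0.33 (adjusted p = 0.565). In males Pitx1 had 105, 127 and 75.2 CPM against 99.87, 96.28, 88.68 and 100 CPM in controls (0.10 ± 0.13, adjusted p = 0.748), with 0 of 6 genes called by either tool, none at an unadjusted p under 0.05 and a background of 2.56%. The estimated difference of this response between the sexes was 0.31 ± 0.20 (adjusted p = 0.779), and by this test 0 of 6 genes were called by edgeR or DESeq2, with none at an unadjusted p under 0.05 (background 0%, 1363 of 18936 genes at an unadjusted p under 0.05, and 10 called by DESeq2).

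Over all mice Pitx1 had 0.26 ± 0.10 after PSD + restraint (adjusted p = 0.0947), and 0 of 6 genes were called by either tool (background 5.46%). An unadjusted p under 0.05 was found for 1 of 6, beside 4838 of 18936 genes tested. Pitx1 was called without PSD + restraint male 3 (0.34, adjusted p = 0.0170). That male had 20.0 CPM of Sox2, 6.95 CPM of Sox9 and 75.2 CPM of Pitx1, the lowest of its group for each gene, while its Lhx3 level of 147 CPM was close to that of the other 2 (149 and 153 CPM). Its library was the smallest of the males, with 16452347 counts, and its endothelial, cartilage, erythroid and forebrain marker sums were the lowest of all 28 mice. Its posterior lobe sum was 46.9 CPM against 75.5 and 97.1 CPM in the other 2, and its intermediate lobe sum 1133 CPM against 2044 and 1965 CPM. The part of these features in its Sox2, Sox9 and Pitx1 levels was not tested.

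Restraint among PSD mice compares glands that all had PSD. In males Sox2 had 34.6, 32.5 and 20.0 CPM with restraint and 21.7 to 22.3 CPM without it (0.41 ± 0.16, adjusted p = 0.404), and Sox9 had 10.7, 12.3 and 6.95 CPM and 6.31 to 7.06 CPM (0.59 ± 0.23, adjusted p = 0.391). In both genes 2 of 3 restrained males were above all PSD males, and male 3 was not. The posterior lobe sums had the same pattern, with 75.5, 97.1 and 46.9 CPM with restraint and 49.3 to 52.9 CPM without it, and their part in these values was not tested. By edgeR and DESeq2 0 of 6 genes were called (background 0.285%), with 2 at an unadjusted p under 0.05, beside 1883 of 18271 genes tested. Without male 3 Sox2 was called (0.61, adjusted p = 0.0460) and Sox9 was not (0.78, adjusted p = 0.148). In females the estimates were 0.05 ± 0.11 for Sox2, 0.04 ± 0.14 for Sox9 and 0.30 ± 0.13 for Pitx1. By either tool 0 of 5 were called (background 0.941%), with 1 at an unadjusted p under 0.05, beside 1905 of 18059 genes tested. Over all mice, again a comparison added after the data had been seen, Pitx1 had 0.30 ± 0.11 (adjusted p = 0.138) and Lhx3 0.16 ± 0.07 (adjusted p = 0.238). No member was called by either tool (background 2.01%), and 2 of 6 had an unadjusted p under 0.05, beside 2612 of 18936 genes tested. Without male 3 Pitx1 was called (0.37, adjusted p = 0.0290).

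Lhx3 had the smallest coefficient of variation of the 6 genes over all mice. Its group means ran from 134 CPM in PSD males to 168 CPM in PSD + restraint females, and the treatment estimates within a sex from -0.06 to 0.17 on the log2 scale. Groups still failed to overlap in a few cases, as in males, where Lhx3 had 149, 153 and 147 CPM after PSD + restraint, 134, 123 and 145 CPM after PSD (0.15 ± 0.08, adjusted p = 0.549) and 129 and 145 CPM after restraint (0.13 ± 0.09, adjusted p = 0.648). Over the 6 genes, groups failed to overlap in 6 of 60 comparisons between treatments, beside 12.3% over all genes. Of these 6 none was called by edgeR, and DESeq2 called that of Sox9 named above. Between the sexes groups failed to overlap in 7 of 24, beside 23% over all genes, and 4 of the 7 were those of Hesx1.

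Some genes of the stem and folliculostellate list were called after PSD + restraint, a comparison with many calls over all genes (5.46% over all mice, 777 genes higher and 256 lower, 2.56% in males and 2.2% in females). Whole-gland libraries do not show in which cells these genes changed. Over all mice 7 of the 30 stem and folliculostellate genes rose and none fell (median 0.24, where the median of all genes tested was below 0.01 in size). Klf4, a pluripotency factor, rose most (1.44, adjusted p = 4.04e-05), from 2.88 to 7.81 CPM in females and from 2.61 to 7.10 CPM in males (group means). Prrx1, a factor of pituitary progenitors (0.59, adjusted p = 0.00157), and the epithelial keratins Krt8 (0.35, adjusted p = 0.00166) and Krt18 (0.37, adjusted p = 0.00249) rose as well. Klf4 was the 1 gene of the list called in females (1.41, adjusted p = 0.00647), and it was also called after restraint over all mice (1.03, adjusted p = 0.00767). Restraint among PSD mice gave a call for Klf4 too, over all mice (1.175, adjusted p = 0.001675) and in females (1.272, adjusted p = 0.02145). In males 7 of 30 were called after PSD + restraint, all higher, led by Anxa1 (0.71, adjusted p = 0.0155), Krt8 (0.45, adjusted p = 0.0168), Cd9 (0.44, adjusted p = 0.0186) and Cxadr (0.35, adjusted p = 0.0307). After PSD over all mice Krt8 was called (0.34, adjusted p = 0.0208). The intermediate lobe marker Pcsk2 was higher after PSD + restraint as well (0.9957, adjusted p = 0.00926). With the neurointermediate score in the model 3 of the 30 genes were called over all mice, 5 in males and none in females.

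Notch and WNT/Hippo signals act in pituitary stem cells, and a few of their genes were called in the same comparison, to be read against the 5.46% of all genes. Of 14 Notch genes 3 rose over all mice, namely the target Hey1 (0.47, adjusted p = 0.000226), the ligand Jag1 (0.40, adjusted p = 0.00470) and the receptor Notch3 (0.40, adjusted p = 0.00819), with a median of 0.09. Hey1 rose in females (0.51, adjusted p = 0.0142) as well as in males (0.45, adjusted p = 0.0201). The Notch target Hes1 fell after restraint over all mice (-0.44, adjusted p = 0.0217). Of 16 WNT/Hippo genes the YAP targets Ctgf (0.69, adjusted p = 0.00676) and Cyr61 (0.93, adjusted p = 0.00955) rose and the WNT target Axin2 fell (-0.50, adjusted p = 0.000537), with a median of 0.12. Axin2 fell in each sex (-0.57, adjusted p = 0.0439 and -0.40, adjusted p = 0.0250). Of 15 other SOX genes Sox6 (0.35, adjusted p = 0.0351) and Sox7 (0.40, adjusted p = 0.0407) rose and the endothelial factor Sox18 fell (-0.56, adjusted p = 0.0179). Of 12 tested S100 genes S100a6 (0.60, adjusted p = 0.0131) and the neutrophil genes S100a8 (2.11, adjusted p = 0.0180) and S100a9 (2.004, adjusted p = 0.0172) rose. None of the 7 proliferation genes and none of 23 pituitary factors was called, and Pomc, the hormone precursor of corticotropes and of the intermediate lobe, rose (0.99, adjusted p = 0.0157). In males Ctgf rose (0.99, adjusted p = 0.00194), while Sox18 (-0.97, adjusted p = 0.0228) and Sox4 (-0.60, adjusted p = 0.0352) fell. With the neurointermediate score the calls over all mice became 1 Notch gene, 1 WNT/Hippo gene higher and 1 lower, 2 SOX genes lower, 1 S100 gene and no hormone gene. Sox4 was also lower after restraint over all mice (-0.52, adjusted p = 0.0432), and Cga, the shared subunit of the glycoprotein hormones, after PSD in females (-0.76, adjusted p = 0.0257) and over all mice (-0.48, adjusted p = 0.0317). Hey1 and Ctgf were called for restraint among PSD mice as well. Over all mice they had 0.4645 (adjusted p = 0.00101) and 0.6804 (adjusted p = 0.02403). In males they had 0.6597 and 0.953 (adjusted p = 0.01535 for each).

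S100b had single mice far above their groups. PSD females had 35.3, 3.002, 7.21 and 2.42 CPM, restraint females 2.71, 2.46, 8.34 and 2.07 CPM, PSD + restraint females 2.83, 4.35, 1.49 and 11.1 CPM, and control females 3.13, 4.25, 4.13 and 1.91 CPM. Among males, controls had 9.57, 2.39, 1.56 and 2.26 CPM, and the other 3 groups lay between 1.42 and 5.67 CPM. In 4 groups a single mouse was thus above the rest, and all groups overlapped. The female PSD estimate was 1.84 ± 0.78 on the log2 scale (adjusted p = 0.209) with all mice, and 0.31 (adjusted p = 0.841) without mouse 1. The estimate for females over males was 0.78 ± 0.43 (adjusted p = 0.171). It became a call without control male 1 (1.09, adjusted p = 0.0333) and lost it again without PSD female 1 as well (0.68, adjusted p = 0.0860).

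Transcripts of brain cells moved with S100b in 3 of these 4 mice. PSD female 1, PSD + restraint female 4 and control male 1 ranked 1, 2 and 4 of 28 for the sum of the 8 forebrain markers (75.5, 53.9 and 25.9 CPM). For the 5 astrocyte markers Aqp4, Aldh1l1, Slc1a2, Slc1a3 and Gfap they ranked 1, 2 and 3 (344.9, 164 and 146 CPM), and for the 6 oligodendrocyte markers 1, 2 and 4 (349, 182 and 146 CPM). PSD female 1 also ranked 1 for the 3 Schwann cell markers (20.5 CPM). Restraint female 3, with 8.34 CPM of S100b, ranked 13 for forebrain (17.0 CPM), 15 for astrocyte (78.7 CPM), 8 for oligodendrocyte (106 CPM) and 19 for Schwann cell markers (5.75 CPM). All 8 forebrain markers were detected in every group except Neurod6, which was at 0 in restraint males and PSD + restraint males. With the forebrain score in the model the female PSD estimate of S100b was -0.59 (adjusted p = 0.675) and the estimate for females over males -0.15 (adjusted p = 0.677). Posterior lobe markers, from another source of S100B, summed to 4.08 CPM in control male 1, the lowest of the 28 mice. They summed to 70.1 CPM in PSD female 1, 80.5 CPM in PSD + restraint female 4 and 51.8 CPM in restraint female 3. The part of brain or posterior lobe tissue in these S100b values was not tested.

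**Figure D4:**
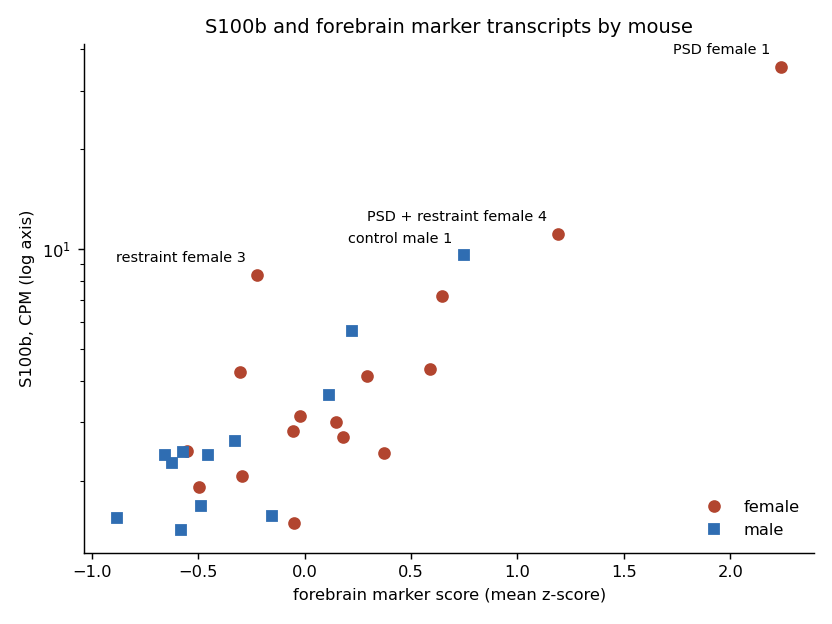
S100b (CPM, log axis) against the forebrain marker score (mean z-score of 7 marker genes) in each of the 28 mice, females as red circles and males as blue squares. PSD female 1, with 35.3 CPM and a score of 2.24, is highest on both axes, while restraint female 3 has 8.34 CPM at a score of -0.22.

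Members were then compared with each other over the 28 mice, after the mean of each group had been taken off the log2 CPM values. Sox2 and Sox9 varied together most closely, with a Pearson r of 0.73 and a Spearman rho of 0.63 (permutations within groups, p = 0.00413 and 0.00869; adjusted over the 15 pairs 0.0620 and 0.1303). The r was 0.71 in females and 0.75 in males, and 0.59 without the 2 mice farthest from the median of Sox2. It misses the threshold after adjustment, and passes it with library size alone as scaling or with sex means in place of group means. Sex means leave the differences between treatments in the values, so that version cannot check the correlation within groups. Next came Sox2 and Pitx1 (r = 0.48, adjusted p = 0.251) and, with a negative sign, S100b and Pitx1 (r = -0.47, adjusted p = 0.175). S100b had an r of -0.17 with Sox2 and -0.18 with Sox9, the stem cell markers among the 15 pairs. The r of all 15 pairs lay between -0.47 and 0.73, and none passed an adjusted p of 0.05. Points share library depth and the makeup of each gland.

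**Figure D5:**
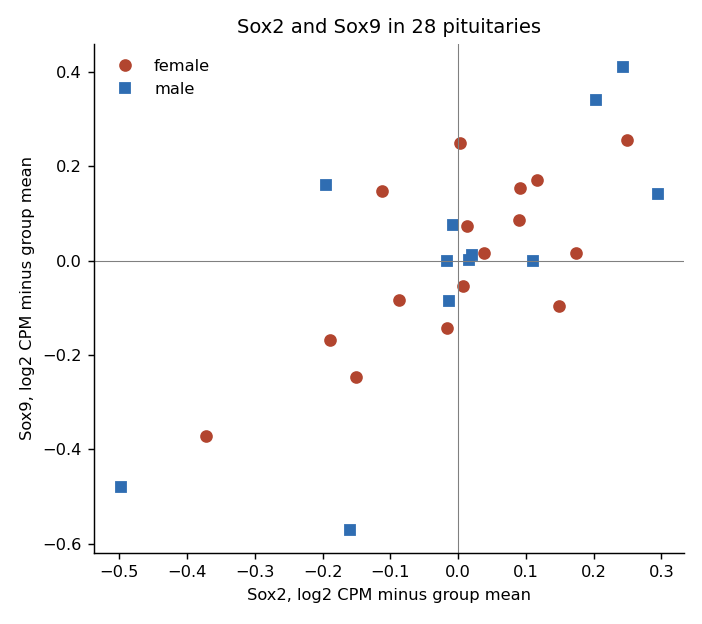
Sox9 against Sox2 in 28 pituitaries, both as log2 CPM minus the mean of the mouse's group, females as red circles and males as blue squares. The points run from lower left to upper right (Pearson r = 0.73).

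The genes most like each member over the same 28 values, out of 14166 with a mean of at least 2 CPM, differed from member to member and are given as a description with no test. For Sox2 they were Celsr1, a planar polarity cadherin (r = 0.90), Mmp15 (0.89) and Runx1 (0.89). For Sox9 they were Fgfr1, a fibroblast growth factor receptor (0.85), Igfbp4 (0.85) and Fstl1 (0.85), the last of which stands on the stem and folliculostellate list. For S100b they included Syngr3, a synaptic vesicle gene (0.94), and Nat8l, the enzyme of N-acetylaspartate synthesis in neurons (0.94). Lhx3 was most like Gnaz (0.89), Zfp318 (0.81) and Gse1 (0.79), and Pitx1 most like Zbtb7a (0.85), Pcsk1n (0.85) and the homeobox gene Msx1 (0.84). For Hesx1, at few counts, the highest values were lower, with Adcy4 (0.69), Pan2 (0.69) and Mknk1 (0.68).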

How the data were processed

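RNA-seq of whole pituitaries from 28 mice in 8 groups was analysed. Per the labels and the study's methods, the authors aligned reads to mm10 with MapSplice and made the deposited counts per gene with HTSeq 0.9.1, and they divided these by DESeq2 (1.16.1) size factors to make the deposited normalized table, a signal that was used here only to check the counts (largest relative deviation 8.3e-09). The strand setting of HTSeq is not given in the sources used here. An aligner or counting error shared by all libraries would not show in these comparisons, and reads shared by overlapping genes may be lost or misassigned.

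Libraries held 14024465 to 52948531 counts, so Hesx1, at up to 23 counts, was measured least precisely. The limit given for a count of 0 covers counting error only. In 37 of 37 pairs of mice within a group the counts differed beyond sampling noise (lowest chi-square per degree of freedom 6.43). P-values measure the spread between mice. Each mouse is 1 library. Per the study's methods, mice were caged by sex and cage mates shared a PSD tank. The labels give neither cage nor tank, so mice of a group may share them. The p-values treat mice as independent and do not cover this.

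Counts were tested with edgeR 4.0.16 (quasi-likelihood, TMM, filterByExpr) in R 4.3.3, with limma 3.58.1. Females and males were each fitted over their 4 groups, all mice with sex as a further term, and differences between the sexes within treatments with 8 group means. Standard errors are the log2 fold change divided by the root of the F statistic. A call needed an adjusted p (Benjamini-Hochberg) of 0.05 or less and a fold of at least 1.25. CPM used TMM over all genes, log2 CPM a prior count of 2, and TPM the mean transcript length of GENCODE M21. The forebrain score used 7 of 8 genes and the neurointermediate score 8 of 8. DESeq2 1.42.0, other filters and scalings, covariates, a replicate block and leaving out each mouse were alternatives. The test was checked on simulated data. Of 24 comparisons 5 were added after the data were seen (the sexes within the 3 treatments, and PSD among restrained and restraint among PSD mice over all mice), as was the joint removal of 2 mice and the recounts of lists. The 6 genes and the lists (stem and folliculostellate, Notch, WNT/Hippo, pituitary factors, SOX, S100, LHX3/PITX1 targets, proliferation, and cell markers) were chosen with earlier results of these data known. From each list every called gene was named where there were at most 4, and otherwise the 4 with the smallest p. Genes most like a member were the 3 with the highest r. A few genes that these rules select are not reported here.

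Replicate numbers mark different animals. Mice of the same number did not deviate together (median r -0.0197 in females and -0.0696 in males), so no pairing was used.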

Additional observations from a re-analysis of the deposited data

Results flagged for a closer look

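In S100b, 3 of the 30 gene and group combinations with 4 mice held a mouse whose gap to the next one exceeded Dixon's critical share of the group's range. Chance flags about 1 in 20 groups where values are normally distributed, and the other 5 genes had none. The rule was applied to CPM, on which S100b is skewed, and not to log2 CPM. On the log2 scale the PSD females had 5.145, 2.862, 1.614 and 1.311, so these flags depend on the scale. PSD female 1 had 35.32 CPM (gap of 0.854 of the range), restraint female 3 had 8.343 CPM (0.898) and control male 1 had 9.573 CPM (0.896). PSD female 1 ranked 1 and control male 1 ranked 4 of 28 mice for forebrain transcripts, and restraint female 3 ranked 13. The part of brain tissue in these values was not tested.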

How the results depend on the processing

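Of 818 alternative counts of called members, 799 equalled the count given or lay within 1.5 times of it, and of 4728 alternative estimates for single genes none changed sign with a call, 127 changed sign without one, 5 lost and 12 gained a call. The cause was not tested unless stated. With DESeq2, 1 member was called for PSD + restraint in females (Pitx1) and 1 for PSD among restrained females (Sox9). With filters of at least 10 counts in every mouse or a mean of at least 1 TPM, which leave out Hesx1, 1 member was called between the sexes over all mice, 0 between home cage controls and 0 within restraint. With only the groups compared in the fit, 0 were called between home cage controls, where Hesx1 was not tested, and 0 within restraint. With the forebrain score 1 was called for PSD + restraint in females, and without a fold threshold 4 between the sexes over all mice. Without control male 1 and PSD female 1 together, 1 was called between the sexes over all mice. Leaving out single mice gave 0 to 1 called members for PSD + restraint in females (1 without PSD + restraint female 4), for restraint among PSD males, PSD + restraint over all mice and restraint among PSD mice over all mice (1 without PSD + restraint male 3), and for the sexes within restraint (0 without either restraint male).

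With a replicate block the members called did not change in any comparison (2, 1, 1 and 3 between the sexes over all mice, in home cage controls, within restraint and within PSD, and 0 elsewhere). Counts of all genes moved with the block, from 5 to 24 for PSD in females, 6 to 1 for PSD among restrained females, 54 to 4 for restraint in males, 1 to 2 for PSD in males, 467 to 147 for PSD + restraint in males, 52 to 6 for restraint among PSD males and 127 to 40 for PSD over all mice. DESeq2 called 196 genes against 98 for restraint, 405 against 5 for PSD, 640 against 398 for PSD + restraint, 96 against 6 for PSD among restrained and 274 against 170 for restraint among PSD females, 100 against 54, 76 against 1, 112 against 1 and 175 against 52 for restraint, PSD, PSD among restrained and restraint among PSD in males, and 248 against 127 for PSD and 64 against 18 for PSD among restrained over all mice. With the neurointermediate score 49 genes against 398 were called for PSD + restraint in females, 2 against 5 for PSD and 0 against 6 for PSD among restrained females, 12, 6 and 112 against 1, 1 and 52 for PSD, PSD among restrained and restraint among PSD in males, 42 against 127 for PSD over all mice, and 2 and 3 against 0 for the sex differences of the PSD and PSD + restraint responses. With only the groups compared in the fit, 54 against 98 were called for restraint, 0 against 5 for PSD and 3 against 6 for PSD among restrained females, 0, 0 and 27 in the 3 male comparisons just named, 48 against 127 for PSD and 6 against 18 for PSD among restrained over all mice, 573 against 1518 for the sexes within restraint and 1 against 0 for the sex difference of the PSD + restraint response. The forebrain score gave 1, 1, 2 and 61 for PSD and PSD among restrained in females, PSD in males and PSD over all mice. Leaving out control male 1 and PSD female 1 gave 7 and 92 for PSD and restraint among PSD in males and 45 for PSD over all mice. Filters moved the count to 11 for PSD in males (no filter), 14 and 13 for PSD in females (10 counts, 1 TPM), 1 for the sex difference of the PSD response (10 counts) and 1844 against 2822 between the sexes over all mice (1 TPM). Without a fold threshold 2064 against 1033 were called for PSD + restraint, 586 against 381 for restraint among PSD mice and 6510 against 2822 between the sexes, all over all mice.

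With library size alone as scaling, r was 0.785 for Sox2 and Sox9 (adjusted permutation p = 0.0249) and 0.00664 for Sox2 and S100b. With sex means removed in place of group means, r was 0.807 for Sox2 and Sox9 (adjusted permutation p = 0.00015, the smallest these permutations can give), 0.555 for Sox2 and Pitx1 (adjusted permutation p = 0.0122) and 0.0556 for Pitx1 and Hesx1. These r values with sex means removed include differences between treatments. Depth limits Hesx1 most, and the 2 restraint males limit comparisons with that group.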
